A study of Rattus norvegicus with 24 samples.

Results

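The livers described here came from 12 rats that had inhaled PCB 52, a tetrachlorinated polychlorinated biphenyl (PCB), and the comparison is between their 6 females and 6 males. These 12 libraries, of 24 in the series, were chosen by their labels for compound and sex and not by any measured value. All were bulk RNA-seq libraries, 1 for each animal, and the rats were Sprague-Dawley, which is outbred. They arrived 28 days old. Each daily session of nose-only inhalation took 4 hours at 12 L/min, and sessions ran for 28 days. Females were 42 days old at the first session and males 39 days, so sex and starting age cannot be told apart. The sexes were also deposited as separate count tables, so sex and any step that differed between the tables cannot be told apart either. The other 12 libraries, 6 females and 6 males of the same stock, starting ages and schedule, went through a sham exposure without PCB 52, and they are the reference for how far the pattern holds. Females are numbered 1 to 6 (animals 14, 16, 18, 20, 22 and 24) and males 1 to 6 (animals 13, 15, 17, 19, 21 and 23). These numbers name animals and pair none of them.

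In the rat, the pituitary of males releases growth hormone in pulses with very low levels between them, while that of females releases it more evenly. Hepatocytes sense this rhythm through the growth hormone receptor and the transcription factor STAT5b, and a large set of liver genes takes a male or female level from it after puberty. Cytochrome P450 enzymes, which oxidise steroids and drugs, are the best known of these, with CYP2C11 made by males and CYP2C12 by females. Sulfotransferases, major urinary proteins and the prolactin receptor follow the same division in this species.

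Exposed libraries held between 7229803 and 9185511 counts in females and between 7480357 and 8439221 in males, and 1 count was worth at most 0.138 CPM (counts per 1000000 counts of its library). CPM is not divided by gene length, so levels are compared between animals and not between genes. Of 15319 genes in both tables, 508 X-linked, 4 Y-linked and 89 genes that matched no symbol, with others not placed on an autosome, were left aside (607 in all), and 14712 autosomal genes remained. The hepatocyte marker Alb, the albumin gene, was between 92006 and 127421 CPM in exposed females and between 95738 and 114712 CPM in exposed males. Its level did not pass the test between the sexes (log2 fold 0.01 ± 0.11, SE). In a bulk sample, fewer cells of a type and less RNA per cell cannot be told apart. Within each sex, the exposed libraries also spread along an axis that no label names. Its leading component held 22.8% of the variance around the means of the sexes. Scores were 13.9 to 19.4 in animals 13 to 16, −17.5 to −14.1 in animals 17 to 20 and −7.48 to 4.74 in animals 21 to 24, so males and females with neighbouring numbers had similar scores.

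Cyp2c12 and Cyp2c11, the reference genes for each sex, separated the exposed animals completely. Cyp2c12, a steroid sulfate hydroxylase in female rats, had 6507 CPM in its lowest exposed female, a median of 10071 and a highest value of 10839.6. In exposed males the lowest value was 40.1 CPM, the median 68.4 and the highest 95.1. Every female was far above every male, at a log2 fold of 7.08 ± 0.17 (SE, females minus males) with an edgeR adjusted p of 1.9e-13. Cyp2c11, which hydroxylates testosterone in male rats, ran the other way, with 4708 CPM in the lowest exposed male, a median of 5678 and 6623 in the highest. Exposed females had 0.112 CPM at the lowest, a median of 1.12 and 9.46 at the highest, and that highest value was female 1, while the other 5 were at most 1.63. The log2 fold was −11.28 ± 0.61 with an adjusted p of 4.5e-07 (−12.68 without female 1), and all 12 libraries sided with the sex on their label.

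The same genes in sham rats gave log2 folds of 6.57 for Cyp2c12 and −12.26 for Cyp2c11. The exposed fold minus the sham fold, tested in 1 fit of all 24 libraries, was 0.52 for Cyp2c12 with a 95% interval of −0.23 to 1.26, and 0.98 for Cyp2c11 with an interval of −0.75 to 2.70. Neither difference passed the test (edgeR adjusted p of 1 for each), and the intervals still allow a change of more than 2-fold in either gene.

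**Figure D1:**
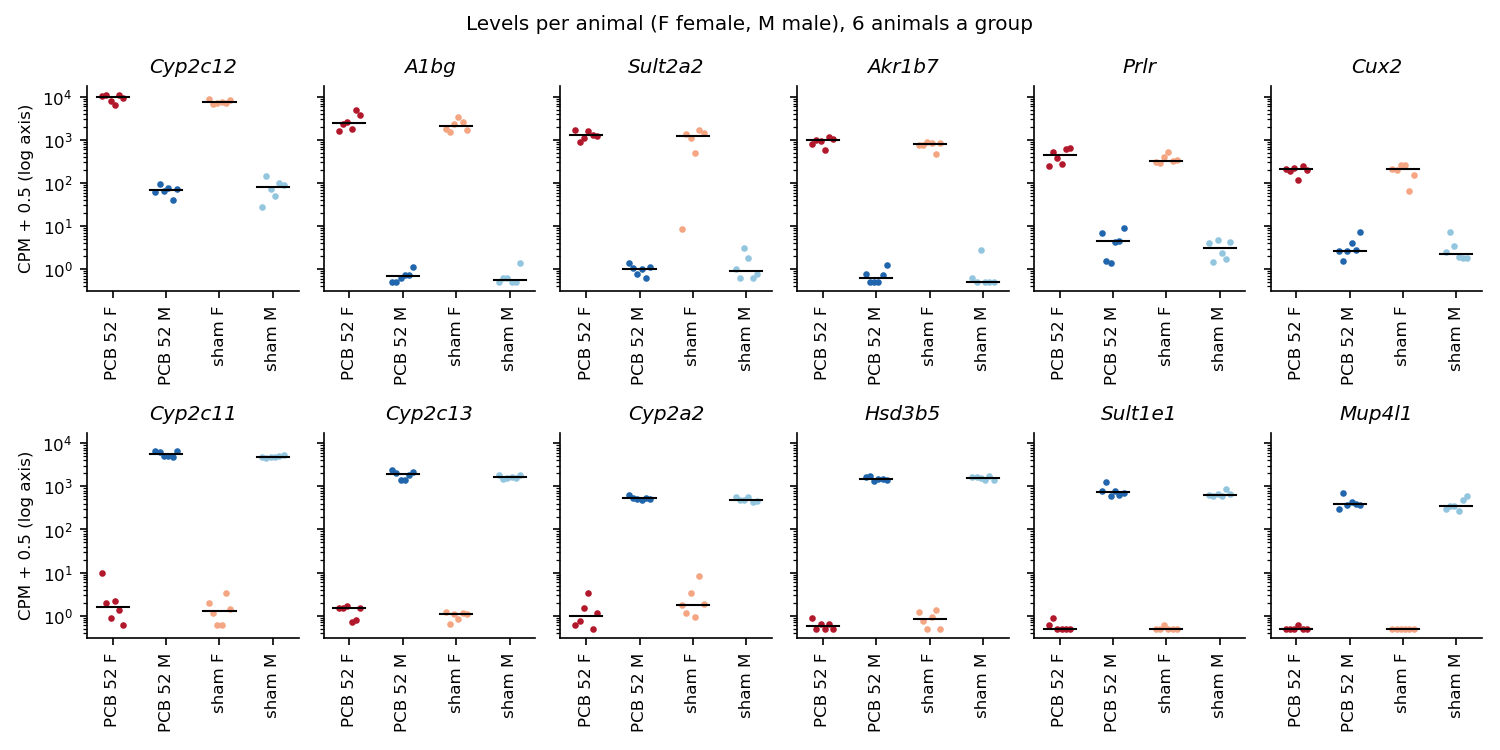
Each point is 1 animal's level in CPM plus 0.5 on a log axis, in PCB 52-exposed and sham females and males (6 each), with the group median as a bar. The upper row holds genes that were high in females and the lower row genes that were high in males. In the exposed rats no female point reaches a male point in any of the 12 genes.

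The other P450 genes of either sex kept to the same sides. All 4 genes of the list of female-type P450s passed the test and were higher in exposed females (the list contains Cyp2c12), with a median log2 fold of 2.59. Over all 9909 autosomal genes tested the median was −0.01, with 17.5% passing in either direction. That share is the background for the counts of every list below. Cyp2c7, a retinoid and steroid oxidase, had between 7323 and 12422 CPM in exposed females (median 9208) against 1168 to 2523 in exposed males (median 1819), a log2 fold of 2.38 ± 0.17 with no overlap between the groups. Cyp2a1, a testosterone hydroxylase, was higher in every exposed female than in any exposed male, at a log2 fold of 1.67 ± 0.11. Cyp3a9, a steroid-oxidising member of the CYP3A family, was also higher in all 6, at 2.80 ± 0.26.

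All 6 tested genes of the male-type P450 list passed and were higher in exposed males, with a median log2 fold of −8.79, and 0 of them overlapped between the sexes. Cyp2c13, a close relative of Cyp2c11, had 1391 CPM in the lowest exposed male, a median of 1968 and 2395 in the highest, against 0.218, 0.990 and 1.15 in exposed females. That is a log2 fold of −11.26 ± 0.32. Cyp3a2, which hydroxylates testosterone, had between 1464 and 1900.2 CPM in exposed males and between 3.60 and 7.765 in exposed females, a log2 fold of −8.33 ± 0.16. Its sham fold was −9.0, and the difference of 0.67 had an interval of 0.17 to 1.18, without 0, at an unadjusted p of 0.011 and an adjusted p of 1 (edgeR). Cyp2a2 was between 483 and 615 CPM in exposed males and between 0 and 2.94 in exposed females, and the female at 2.94 was female 4. Cyp3a18 was at −3.97 ± 0.17, with 14.1 to 34.6 CPM in females and 333.7 to 513 in males. Cyp2c22 had the smallest fold of the list at −0.96 ± 0.13, with 349 to 533 CPM in females and 609 to 1041 in males. Cyp4a2, the remaining gene of the list, was too low to test, at no more than 0.988 CPM in any exposed male. The P450 families hold near-identical members, and how the authors' counting divided reads among them is not known, so the values of single members are uncertain.

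A per-animal summary places each liver on this division: the mean log2(CPM + 0.5) of the 4 female-type P450s minus that of the 7 male-type P450s, Cyp4a2 included. Exposed females scored 7.69 at the lowest, 8.29 at the median and 8.93 at the highest, and exposed males −1.92, −1.64 and −1.36. Sham females scored 7.26, 8.27 and 8.89, and sham males −2.0, −1.54 and −1.23. All 6 exposed males lay inside the range of sham males. Of the exposed females, 5 lay inside the range of sham females and female 5, at 8.93, just above it, and no animal lay between the sexes.

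Promoter windows are shown for 6 genes that carry the division, 4 neighbours of the Cyp2c family that go to opposite sexes and the leading female and male genes outside it. The windows run from 250 bases before to 50 bases after the start of the gene, and are from RefSeq in the GRCr8 assembly. Capitals mark the STAT core TTCNNNGAA and the letters ATCAAT, a core bound by HNF6 (the product of Onecut1), each searched separately on both strands. Cyp2c12 (chr1:248676985-248677284, minus strand) and Cyp2c7 (chr1:247966144-247966443, plus strand) were higher in females. Cyp2c11 (chr1:246174966-246175265, plus strand) and Cyp2c13 (chr1:248787139-248787438, minus strand) were higher in males. A1bg (chr7:94387447-94387746, minus strand) led the female genes, and Mup4l1 (chr5:80226485-80226784, minus strand) was among the leading male genes.
Cyp2c12: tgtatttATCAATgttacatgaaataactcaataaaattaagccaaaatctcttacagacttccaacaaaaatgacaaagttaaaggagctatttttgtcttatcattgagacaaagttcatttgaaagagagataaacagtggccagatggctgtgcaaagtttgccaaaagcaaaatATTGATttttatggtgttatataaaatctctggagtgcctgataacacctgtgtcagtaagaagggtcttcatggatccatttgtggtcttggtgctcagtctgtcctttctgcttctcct
Cyp2c7: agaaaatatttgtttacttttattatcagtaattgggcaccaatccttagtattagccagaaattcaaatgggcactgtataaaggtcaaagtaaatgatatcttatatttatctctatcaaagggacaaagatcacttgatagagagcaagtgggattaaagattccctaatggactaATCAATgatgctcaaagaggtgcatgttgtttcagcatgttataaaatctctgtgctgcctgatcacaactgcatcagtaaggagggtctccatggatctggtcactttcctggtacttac
Cyp2c11: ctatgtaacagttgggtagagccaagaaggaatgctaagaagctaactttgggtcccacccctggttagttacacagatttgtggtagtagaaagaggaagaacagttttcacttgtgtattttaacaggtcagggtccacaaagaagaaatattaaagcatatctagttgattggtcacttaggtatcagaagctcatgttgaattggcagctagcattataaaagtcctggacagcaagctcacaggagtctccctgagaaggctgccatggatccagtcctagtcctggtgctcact
Cyp2c13: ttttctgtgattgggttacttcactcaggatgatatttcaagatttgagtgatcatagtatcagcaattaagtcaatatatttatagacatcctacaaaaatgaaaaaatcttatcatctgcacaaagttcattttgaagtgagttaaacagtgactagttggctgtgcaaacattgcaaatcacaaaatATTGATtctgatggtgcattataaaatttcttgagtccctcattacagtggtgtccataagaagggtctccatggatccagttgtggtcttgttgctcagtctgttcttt
A1bg: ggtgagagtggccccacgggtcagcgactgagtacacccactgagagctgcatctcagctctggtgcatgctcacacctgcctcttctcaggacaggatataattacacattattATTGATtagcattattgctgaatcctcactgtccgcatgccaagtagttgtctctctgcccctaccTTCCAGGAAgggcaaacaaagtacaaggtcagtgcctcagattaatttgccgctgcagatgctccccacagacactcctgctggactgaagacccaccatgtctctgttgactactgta
Mup4l1: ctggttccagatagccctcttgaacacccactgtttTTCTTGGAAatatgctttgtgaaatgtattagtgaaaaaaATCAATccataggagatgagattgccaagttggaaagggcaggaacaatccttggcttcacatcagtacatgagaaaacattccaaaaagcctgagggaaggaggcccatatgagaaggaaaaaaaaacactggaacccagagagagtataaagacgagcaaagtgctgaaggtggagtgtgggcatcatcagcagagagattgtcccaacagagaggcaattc

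The Cyp2c12 and Cyp2c13 windows were the most alike of the 4 Cyp2c windows, with 67.5% identical positions in a global alignment, although their genes go to opposite sexes. Cyp2c11 and Cyp2c12 shared 53.5%. ATCAAT stood at 2 places in Cyp2c12 and at a single place in Cyp2c7, Cyp2c13, A1bg and Mup4l1, and TTCNNNGAA at a single place in A1bg and in Mup4l1. Neither was found in the Cyp2c11 window, which says only that these letters are not in these 300 bases. Among the 8173 tested autosomal genes with a promoter entry, 3.62% held ATCAAT and 6.97% held TTCNNNGAA. Of the 70 with an entry among genes at least 4-fold higher in exposed females, 7 held ATCAAT (10%) and 8 held TTCNNNGAA (11.4%). Of the 68 among genes at least 4-fold higher in exposed males, 10 held ATCAAT (14.7%) and 5 held TTCNNNGAA (7.35%). Those 10 include Mup4l1, Mup4l3, Mup4l4 and Mup5, relatives whose windows are much alike around the match. They are thus not 10 independent promoters, and the share of 14.7% counts the same stretch repeatedly. A match is a string of letters and not a measured binding site.

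Across the autosomes, 1738 of 9909 genes tested passed between exposed females and males (adjusted p under 0.05, edgeR quasi-likelihood test). Of these, 903 were higher in females (9.11% of those tested) and 835 in males (8.43%). A difference of at least 2-fold was reached by 251 genes higher in females (2.53%) and 229 higher in males (2.31%), and of at least 32-fold by 17 and 32. In 965 of the tested genes (9.74%) the 6 females and 6 males did not overlap in CPM, and 922 of these passed. The share that passed ran from 13.6% on chromosome 3 to 21.5% on chromosome 2, so calls were spread over all 20 autosomes.

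Sham rats, which share no library with the exposed rats, had 2105 calls among 9940 autosomal genes (21.2%), with 1106 higher in females (11.1%) and 999 in males (10.1%). In total 1367 genes passed in both, 727 higher in females and 640 in males, and 0 passed in opposite directions. They made up 78.7% of the exposed calls and 64.9% of the sham calls. Genes with larger folds were shared more fully. At least 2-fold differences in sham rats were called for 247 genes higher in females (2.48%) and 219 in males (2.20%), and 419 of these 466 (89.9%) also passed in exposed rats. Of the 480 exposed genes of that size, 441 (91.9%) passed in sham rats.

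The genes that sham rats mark most strongly give a view that the exposed libraries had no part in choosing. Sham females exceeded sham males at least 4-fold in 74 called genes (0.744%), and males exceeded females in 83 (0.835%). Of 71 such female genes that could be tested in exposed rats, all 71 passed in the same direction, with a median log2 fold of 3.05 beside 2.88 in sham rats. Of 79 male genes tested, all 79 had the same direction and 77 passed, with medians of −4.05 and −4.0, the same with the 5 that had 0 counts in exposed females set at a floor of 3 counts. In 72 of the 74 and 77 of the 83, no exposed female overlapped an exposed male.

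The size of the division was close in both treatments. Over the 453 genes called at least 2-fold in sham rats and tested in exposed rats, the median ratio of the exposed to the sham log2 fold was 0.981. Over the 472 chosen the other way, by exposed rats, the median ratio of sham to exposed was 0.946. Each choice of genes favours the set of animals that made it. Of 375 genes at least 2-fold in both, 211 had the larger fold in exposed rats. Across the autosomal genes tested in both, Pearson's r between the log2 folds was 0.955, given as a description because genes are not independent replicates.

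**Figure D2:**
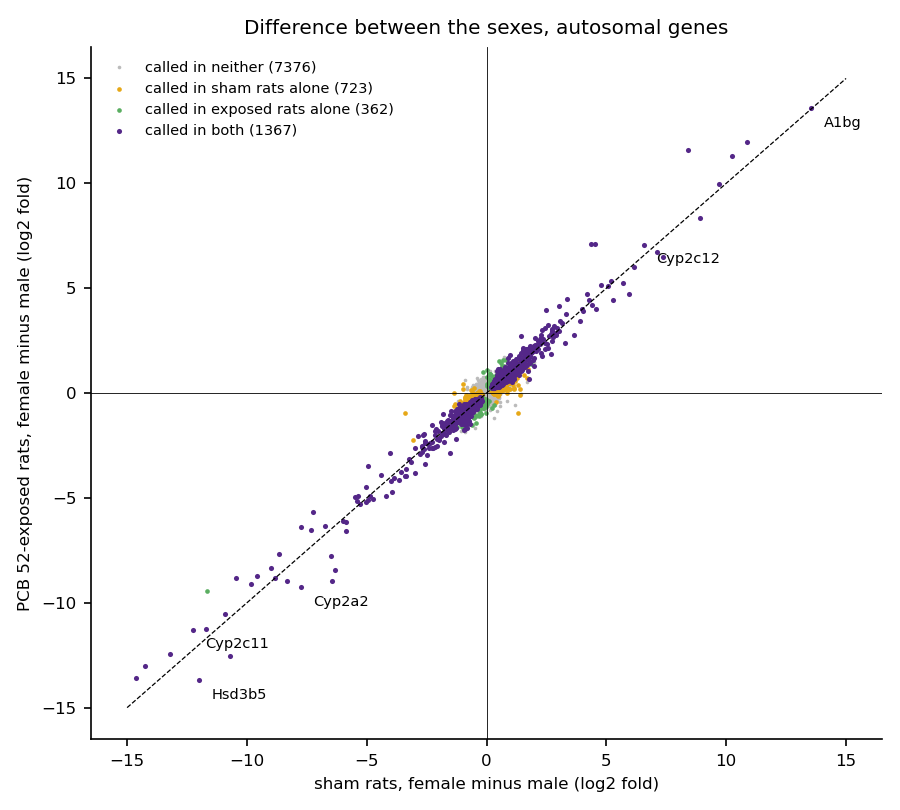
Each point is an autosomal gene tested in both treatments, with its female-minus-male log2 fold in sham rats on the x axis and in PCB 52-exposed rats on the y axis, coloured by where it passed (adjusted p under 0.05). The dashed line marks equal folds, and the genes called in both all have the same sign in both treatments.

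The test of the difference itself, exposed fold minus sham fold, covered 10202 autosomal genes and called 0 (0%). The smallest adjusted p rounded to 1, and 231 genes had an unadjusted p under 0.05 where 510 would be expected by chance. So large a shortfall is not added evidence of equal folds, and its cause was not tested. The fit had no term for the library axis, whose part in the shortfall was not tested. With a block for consecutively numbered animals, 343 genes were under 0.05 and 0 were called. DESeq2 and limma-voom also called 0, with 230 and 313 genes at an unadjusted p under 0.05. A missed threshold does not show equal folds, so the precision matters. For 1156 of the 1367 shared genes (84.6%), the 95% interval of the difference lay within a 2-fold change either way. The median interval reached 0.38 on the log2 scale to each side of its estimate. Shared genes had passed in both treatments with the same sign, a choice that favours precise and similar folds. The share does not cover the 738 genes called in sham rats alone or the 371 called in exposed rats alone.

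The genes with the smallest unadjusted p in this test, none of which passed, were all at or below 16.5 CPM in every exposed library. Ldhb, a lactate dehydrogenase subunit, had a log2 fold of 1.00 in exposed rats and −0.14 in sham rats, a difference of 1.14 (95% interval 0.48 to 1.80). Homez, a homeobox gene, had 0.89 and 0.13, a difference of 0.76 (0.31 to 1.21). Etv5, Tubgcp2 and Zfp697 completed the 5 with a positive difference, at 0.83, 0.38 and 0.81. On the negative side, Aig1 had a log2 fold of 0.21 in exposed rats and 1.39 in sham rats, a difference of −1.19 (−1.90 to −0.47). Camlg, C1h19orf47, Mcm7, a subunit of the replicative helicase, and Dstyk were at −0.58, −0.60, −0.55 and −0.54. The adjusted p of all 10 was 1.

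**Figure D3:**
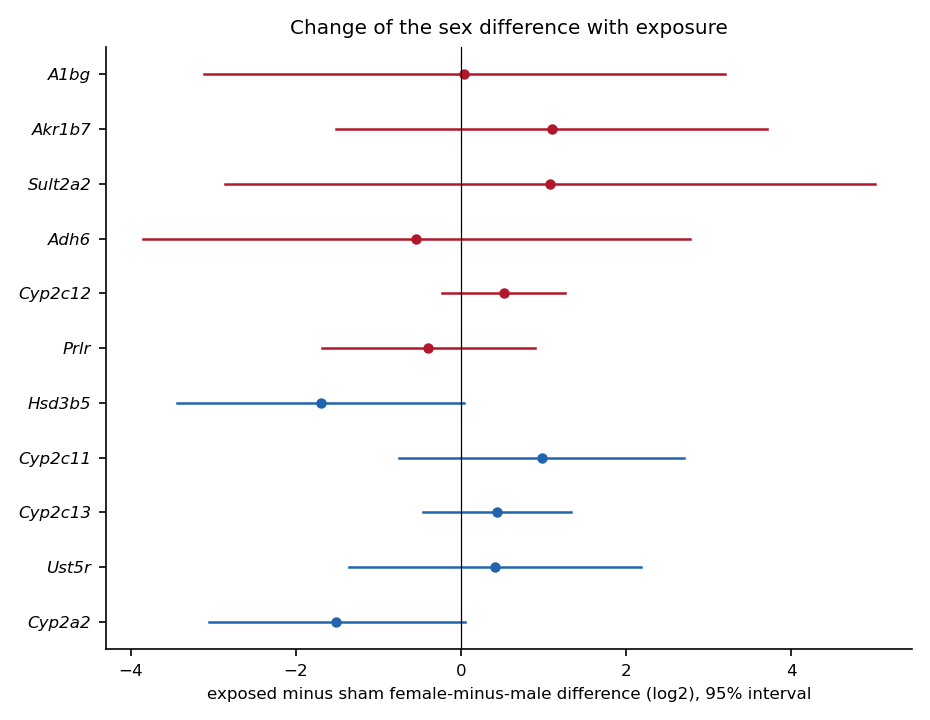
For each of the leading exposed genes with over 3 counts in every group, the point is the exposed minus the sham female-minus-male log2 fold and the bar its 95% interval, red for genes higher in females and blue for genes higher in males. Every interval shown includes 0, and that of Sult2a2, for which sham female 1 was at 8.08 CPM and the other sham females at 508 or more, is the widest.

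Among genes that passed on a single side, folds were mostly smaller and in the same direction. Of 738 genes called in sham rats and not in exposed rats, 723 were tested in exposed rats, 701 of them with the same sign and 47.2% at an unadjusted p under 0.05 besides, and the median fold was 0.39 in sham rats and 0.24 in exposed rats (log2). Of 371 called in exposed rats and not in sham rats, 362 were tested in sham rats, 356 with the same sign and 44.8% at an unadjusted p under 0.05 besides, and the medians were 0.50 and 0.26. Leading exposed calls of that kind were Trib1, a pseudokinase of hepatic lipid control, at −0.86 ± 0.11 in exposed rats and −0.62 in sham rats, and Mki67, a marker of dividing cells. Mki67 had 5.05 to 10.4 CPM in exposed females and 1.69 to 4.03 in exposed males, without overlap, at 1.58 ± 0.25 in exposed rats and 0.67 in sham rats. The difference was 0.91 with an interval of 0.09 to 1.73 (unadjusted p of 0.030, adjusted p of 1, edgeR). Kcnh1, Spink1 and Ncam2, the others, had 3 to 9 counts over all exposed females, were higher in every exposed male, and were below the filter in sham rats. Sham males did not overlap sham females in them either. The lowest sham males were at 1.23, 0.246 and 0.518 CPM, and the highest sham females at 0.341, 0.227 and 0.119. These calls were thus absent in sham rats by the filter and not by a test. From the sham side, Ifitm3, an antiviral membrane protein, was at 0.76 in sham rats and 0.34 in exposed rats, and Nrbf2, an autophagy factor, at 0.79 and 0.33. The Nrbf2 call appeared in exposed rats with DESeq2 (0.33), in a fit of all 24 libraries (0.33), and when female 5 (0.40) or male 2 (0.39) was left out. Lgsn and Asb5 were below the filter in exposed rats, where no male exceeded 6.11 CPM for either. Every exposed male was still above every exposed female. Lgsn was at 1.24 CPM or more in males and at most 0.901 in females, and Asb5 at 1.17 or more and at most 0.830.

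The female-biased genes with the largest exposed folds included enzymes, receptors and transcription factors. A1bg, a plasma glycoprotein of the immunoglobulin superfamily, had 1627 CPM in its lowest exposed female, a median of 2440 and 4973 in the highest, against at most 0.618 in any exposed male (10 counts over all 6). Its log2 fold was 13.58 ± 0.98. Akr1b7, an aldo-keto reductase, had 590.8 to 1157 CPM in females and at most 0.741 in males (11.97 ± 0.70). Adh6, an alcohol dehydrogenase, had 20.9 to 64.6 CPM in females and at most 0.474 in males (8.35 ± 1.19). These groups did not overlap. Leaving out the male with the highest level moved these folds: A1bg was at 14.25 and Akr1b7 at 12.92 without male 6, and Adh6 at 9.92 without male 5.

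Other genes of this kind were less abundant. Akr1b10, another aldo-keto reductase, had 2.18 to 14.5 CPM in females and 2 counts in all males, a ratio over summed counts of 190 with a counting interval of 52.4 to 1578. Apba2, an adaptor protein of vesicle traffic, had 2.35 to 7.18 CPM in females and 1 male count, a ratio of 244 (43.4 to 9672). Krt23, a keratin, was lowest at 1.94 CPM and highest at 27.1 in females, and at most 0.250 in males.

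Cpa1, a carboxypeptidase best known from the pancreas, was also on this list. It had 72.1 CPM in its lowest exposed female, a median of 103.3 and 190.7 in the highest, against 1 count over all exposed males, a ratio of 5363 with a counting interval of 962 to 211849. The pancreatic genes Prss1 and Pnlip, trypsinogen and pancreatic lipase, had 0 counts in all 12 libraries. Cel, a further pancreatic lipase, was at most 0.638 CPM, and Cela1, an elastase, was lower in females, at 2.69 to 8.38 CPM against 15.3 to 22.5 in males. Defining pancreatic markers were thus at or near 0 while Cpa1 was high in females.

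Hormone receptors held some of the clearest members. Of 9 tested receptors, 3 were higher in exposed females, 2 in exposed males and 4 did not pass, with a median log2 fold of 0.02. Together 55.6% passed, beside 17.5% of all genes tested. Prlr, the prolactin receptor, had 250.8 CPM in its lowest exposed female, a median of 446 and 663 in the highest, against 0.909, 3.95 and 8.275 in exposed males (6.74 ± 0.47, adjusted p of 2.1e-06, edgeR). Lifr, the leukaemia inhibitory factor receptor, had 127 CPM in female 4 and up to 1517 in the other females, against 24.4 to 32.5 in males (4.73 ± 0.54). Neither overlapped between the sexes.

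Ghr, the growth hormone receptor, differed far less, with 569 to 775.5 CPM in females and 427 to 551 in males, again without overlap (0.47 ± 0.11). The epidermal growth factor receptor Egfr was higher in males at −0.74 ± 0.14, with 5 of 6 males above every female. Thra, a thyroid hormone receptor, was higher in males at −0.63 ± 0.13, also with 5 of 6 males above every female.

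Of 12 tested genes of growth hormone signalling, 2 were higher in females, 1 in males and 9 did not pass, with a median of 0.08. That is 25% called, not far from the 17.5% of all genes tested. Stat3, a cytokine signal transducer, was at 0.70 ± 0.13 with all 6 females above every male. Socs3, a feedback inhibitor of cytokine receptors, was at 0.88 ± 0.26, a call lost when female 1 (0.81), female 2 (0.80) or male 4 (0.80) was left out. In the insulin-like growth factor (IGF) list, 2 of 7 passed (28.6%), both higher in females. Igfbp2 had 7.04 to 23.2 CPM in females and 0.267 to 3.91 in males (3.02 ± 0.48), and Igfbp1 a log2 fold of 2.01 ± 0.37 with male 5, at 120.9 CPM, inside the female range. Both encode binding proteins of the IGFs. Igf1 itself was at −0.18 ± 0.12 (adjusted p of 0.37, edgeR), a call gained without animals 13 to 16 (−0.38).

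Of 18 tested transcription factors, 5 were higher in exposed females, 3 in exposed males and 10 did not pass, with a median of −0.05. Calls made up 44.4% of this list, beside 17.5% of all genes tested. Cux2, a homeobox repressor of male-type genes in female liver, had 113.9 CPM in its lowest exposed female (female 4), a median of 208 and 253 in the highest, against 1.07, 2.17 and 6.79 in exposed males (6.02 ± 0.35). Trim24, a nuclear receptor cofactor, was at 5.17 ± 0.38, and its lowest female, again female 4, was at 49.1 CPM where the median was 161. Tox, a factor with an HMG box, was at 4.44 ± 0.55. The groups did not overlap in any of these genes.

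Nr1i3, which encodes the xenobiotic receptor CAR, ran opposite, with 86.2 CPM in the lowest exposed male, a median of 112.5 and 141 in the highest. Exposed females had 9.565 CPM at the lowest, a median of 19.97 and 31.3 in female 1. All males were above all females, at −2.57 ± 0.25, beside −2.16 in sham rats. Cyp2b2, a known CAR target named here after its values were seen, was at 59.96 to 119.7 CPM in exposed males and 1.28 to 14.9 in 5 of the exposed females. Female 1 stood at 84.7 CPM, inside the male range. With all 12 libraries the log2 fold was −2.22 ± 0.76 and did not pass (adjusted p of 0.081, edgeR), and it passed at −3.53 without female 1. Cyp2b2 also passed with limma-voom (−3.46) and in a fit of all 24 libraries (−2.22). In sham rats it passed at −3.05.

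Bcl6, Cish, Socs2 and Onecut1, genes known to respond to growth hormone in rodent liver, had wide ranges among males of both treatments. In sham males, Bcl6 ran from 11.8 to 135 CPM, Cish from 2.58 to 92.65, Socs2 from 14.2 to 36.9 and Onecut1 from 5.03 to 139. Sham females also ranged widely for Cish (5.90 to 39.0), Socs2 (5.52 to 34.95) and Onecut1 (12.7 to 177.7). Their Bcl6 was narrower, at 33.8 to 43.5 CPM. Among exposed males, Bcl6, a transcriptional repressor, was at 62.5 CPM in male 3 and 62.8 in male 4. It was at 10.4 to 15.3 in males 1, 2 and 6 and at 25.5 in male 5, while exposed females lay between 31.4 and 47.2. Cish, a feedback inhibitor induced through STAT5 and named here after its values were seen, was lowest in the males with the highest Bcl6. It was at 4.805 and 2.62 CPM in males 3 and 4 and between 26.1 and 43.0 in the other 4 males, with females between 20.1 and 49.0. Socs2, another feedback inhibitor, was also lowest in males 3 and 4, at 6.62 and 8.49 CPM, against 12.0 to 21.8 in the other males. Exposed females ran from 9.91 to 46.8 CPM for Socs2. High Bcl6 with low Cish and Socs2 was also seen without exposure. Sham male 1 had the highest Bcl6 of the sham males, at 135 CPM, and the lowest Cish and Socs2, at 2.58 and 14.2. Sham male 4, next for Bcl6 at 53.5 CPM, had Cish at 33.2.

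None of the 4 passed edgeR's test between the sexes in exposed rats. Bcl6 was at 0.14 ± 0.45, Cish at 0.32 ± 0.55 and Socs2 at 0.90 ± 0.37 (adjusted p of 0.88, 0.77 and 0.14, edgeR). Onecut1, the gene of HNF6, was at 1.72 ± 0.55 (adjusted p of 0.061), with 33.9 CPM in female 4 and 87.8 to 182.9 in the other females, against 5.095 to 72.7 in males. Leaving out female 4 raised Onecut1 to 1.92 and Socs2 to 1.08, and both then passed. Onecut1 also passed without male 2 (2.02), with DESeq2 (1.72), with limma-voom (2.08) and with a block for consecutively numbered animals (1.81), and Socs2 passed with that block (0.89). Males 3 and 4 were at the low end of the library axis, at −15.9 and −17.5, together with females 3 and 4, whose Bcl6 values were 47.2 and 35.0 CPM, and the part of that axis in these values was not tested.

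**Figure D4:**
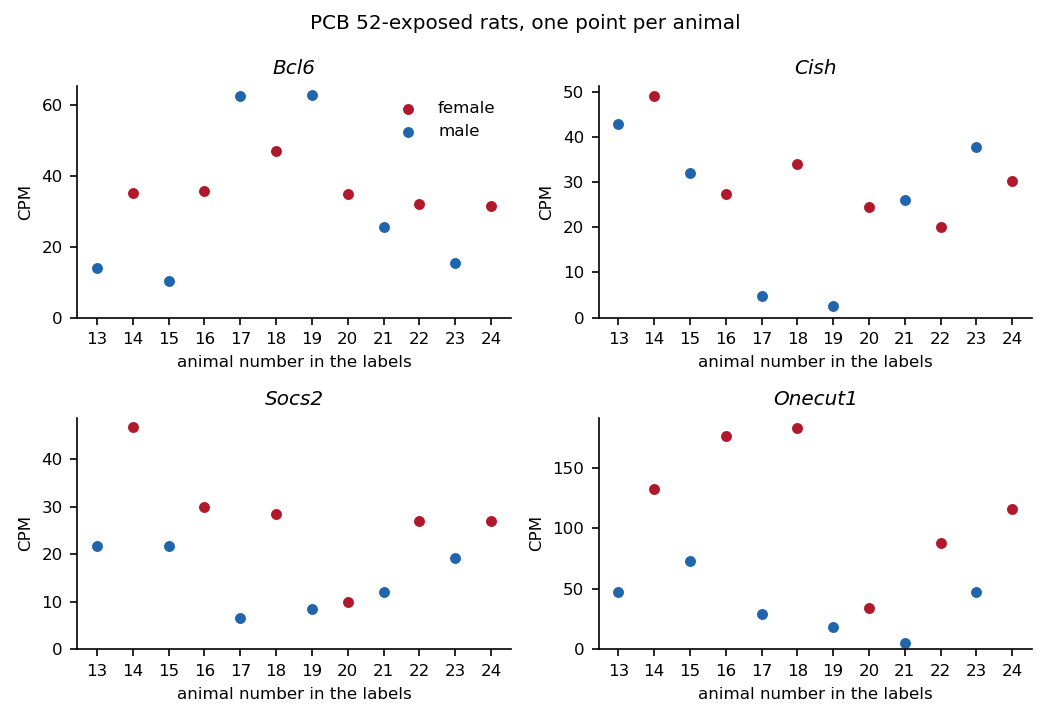
Levels in CPM of Bcl6, Cish, Socs2 and Onecut1 in each PCB 52-exposed rat, by the animal number of the labels, females in red and males in blue. Animals 17 and 19, males 3 and 4, stand highest for Bcl6 and lowest for Cish and Socs2.

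The male-biased genes with the largest folds were steroid enzymes, transporters and secreted proteins. Hsd3b5, a keto-reducing hydroxysteroid dehydrogenase, had 1362 CPM in its lowest exposed male, a median of 1482 and 1718.5 in the highest, against at most 0.364 in any female (−13.70 ± 0.60, adjusted p of 1.3e-17, edgeR). Its fold in sham rats was −12.00, and the difference was −1.70 with an interval of −3.44 to 0.04. Without female 1 the exposed fold was −14.56. Slc22a8, an organic anion transporter, had 269 to 336 CPM in males and 2 counts over all females, a ratio of 7534 with a counting interval of 2085 to 62213. Ust5r, a relative in the same transporter family, had 175 to 299 CPM in males and at most 0.327 in females (−10.52 ± 0.58). Akr1c3, a hydroxysteroid dehydrogenase, had 6.75 to 9.48 CPM in males and 0 counts in females. Against a floor of 3 counts over the female group, it was at least 127-fold higher in males.

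Major urinary proteins, pheromone carriers made by the liver, were close to absent in exposed females. Mup4l1 had 296 CPM in its lowest exposed male, a median of 382 and 718.5 in male 2, against 1 count over all females. Mup4l4 had 57.3 to 201.6 CPM in males, the highest again male 2, and 0 counts in females, and was at least 1485-fold higher in males over the same floor. Mup4l3, Mup5 and Mup4 also had 0 counts in females and were at least 172-fold, 139-fold and 112-fold higher in males. The Mup4l3 call was lost without animals 13 to 16 (−9.08). Obp3, a further urinary protein gene named here after its values were seen, had 0 counts in all exposed females and ran from 0.948 to 136 CPM in exposed males, again with male 2 highest, and was below the filter. The Mup genes are near-identical in sequence, so the values of single members are uncertain. The list of male-type secreted proteins had 6 of 9 tested members higher in males, 0 higher in females and a median of −3.40, which is the value of A2m and stays in place with Mup4 and Mup5 at their bounds. In it, Car3, a carbonic anhydrase, had 2192 to 2456 CPM in males and 14.7 to 65.6 in females (−6.16 ± 0.37).

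Steroid-handling enzymes divided in both directions. Of 18 tested, 5 were higher in exposed females, 7 in exposed males and 6 did not pass, with a median of −0.16. Srd5a1, a steroid 5α-reductase, had 1033 CPM in its lowest exposed female, a median of 1190.0 and 1272 in the highest, against 41.8, 61.8 and 125.9 in exposed males (4.02 ± 0.22). Hsd11b1, which regenerates active glucocorticoid, had 663 to 776 CPM in males and 25.8 to 74.1 in females (−4.15 ± 0.20). Akr1d1, a 5β-reductase of bile acid synthesis, was at −1.73 ± 0.17. In none of these did the sexes overlap.

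Sulfotransferases, which attach sulfate to steroids and drugs, split 3 to 3 among 12 tested, with 6 that did not pass and a median of −0.21. Sult2a2, which sulfates hydroxysteroids, had 883 CPM in its lowest exposed female, a median of 1266 and 1666 in the highest, against at most 0.909 in any exposed male (11.30 ± 0.37). Sult2a6 was at 5.24 ± 0.30 and Sult2a1 at 2.36 ± 0.24. Sult1e1, the estrogen sulfotransferase, had 600.4 to 1289.9 CPM in exposed males, with male 2 highest, and 4 counts over all females (−13.02 ± 0.99, or −14.30 without female 2). Sult1c3 had 339 to 472 CPM in males and 4.36 to 7.96 in females (−6.10 ± 0.14). Members of the Sult2a family are near-identical, and their single values are uncertain.

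Glutathione transferases, which conjugate electrophiles, had 4 of 19 tested members higher in females and 9 in males, with a median of −0.07. Gstm1 (−1.30 ± 0.13) and Gstm2 (−1.15 ± 0.08) were higher in every male than in any female, and Gsta1 (0.95 ± 0.10) was higher in every female. Of 23 other P450 genes, 2 were higher in females, 9 in males and 12 did not pass, with a median of −0.25. Cyp2j3 was at −1.49 ± 0.12, Cyp2d4 at −1.07 ± 0.14, Cyp2b3 at −0.83 ± 0.12 and Cyp2d3 at −0.69 ± 0.09, each higher in all 6 exposed males than in any exposed female. Glucuronosyltransferases had 1 of 10 higher in females and 3 in males (40%, beside 17.5% of all genes tested), with a median of −0.01. Of 21 transporters, 8 were higher in females and Slc22a8 alone in males (42.9% in all), with a median of 0.08. The efflux pump Abcc3 was at 2.71 ± 0.19, its relative Abcc2 at 0.84 ± 0.12 and the phospholipid transporter Abcb4 at 0.76 ± 0.10. Slco1a1, an organic anion uptake carrier, was at −0.33 ± 0.14 and did not pass (adjusted p of 0.12, edgeR), and passed without female 1 (−0.42). It also passed in a fit of all 24 libraries and with a block for consecutively numbered animals (−0.33 in each). In sham rats Slco1a1 passed at −0.27.

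Lipid synthesis genes were mostly higher in exposed females. Of 25 lipogenic genes tested, 17 were higher in females, 1 in males and 7 did not pass, with a median of 0.81. Acacb, an acetyl-CoA carboxylase, had 194.7 CPM in its lowest exposed female, a median of 268 and 358.7 in the highest, against 61.4, 67.03 and 81.1 in exposed males (2.03 ± 0.13). The desaturases Fads2 and Fads1 were at 1.58 ± 0.13 and 1.34 ± 0.15, Acss2, which makes acetyl-CoA from acetate, at 1.29 ± 0.13, and the citrate lyase Acly at 1.41 ± 0.20, without overlap in any. Named after their values were seen, the fatty acid elongase Elovl6 was at 3.77 ± 0.38 and the fatty acid synthase Fasn at 1.38 ± 0.29. The exception by role was Srebf1, the gene of their shared regulator SREBP1, also named after its values were seen. It was at −0.25 ± 0.17 and did not pass (adjusted p of 0.38, edgeR). The sham fold of Acacb was 1.5, a difference of 0.53 with an interval of 0.11 to 0.95 and an adjusted p of 1.

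Of 18 tested genes of cholesterol synthesis and uptake, 14 were higher in exposed females and 0 in exposed males, with a median of 0.89. Fdps, farnesyl diphosphate synthase, had 599 to 1105 CPM in females, with female 5 highest, and 136 to 295 in males (1.97 ± 0.22). Dhcr7, the last reductase of the pathway, was at 1.37 ± 0.15, Mvd, a decarboxylase of the mevalonate arm, at 1.16 ± 0.17 and Sc5d, a desaturase, at 0.90 ± 0.13. Every exposed female was above every exposed male for these genes. In sham rats the folds of Mvd and Dhcr7 were 0.56 and 0.97, and neither difference passed (0.60, interval 0.12 to 1.07, and 0.40, interval −0.12 to 0.92).

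Fatty acid uptake and oxidation had 10 of 28 tested genes higher in exposed females and 5 in exposed males, with a median of 0.24. Cd36, a fatty acid translocase, had 117.4 CPM in its lowest exposed female, a median of 299 and 394.5 in the highest, against 9.87, 11.4 and 15.3 in exposed males (4.44 ± 0.35). The ω-hydroxylases of the CYP4A family went different ways: Cyp4a1 (2.18 ± 0.22) and Cyp4a3 (2.72 ± 0.34) were higher in females and Cyp4a8 (−4.73 ± 0.50) in males. Cyp4a3 was at 1.44 in sham rats, a difference of 1.27 with an interval of 0.40 to 2.14 that did not pass (adjusted p of 1). In exposed females Cyp4a3 was at 7.52 to 10.8 CPM in 5 animals and at 16.6 in female 6.

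Bile acid, glucose and iron genes showed smaller divisions. Of 11 bile acid genes, 1 was higher in females and 3 in males (36.4%, beside 17.5% of all genes tested), with a median of −0.21. Baat, which conjugates bile acids, was at −0.87 ± 0.10, Cyp7b1, an oxysterol hydroxylase, at −1.06 ± 0.20 and Cyp27a1, the sterol 27-hydroxylase, at 0.47 ± 0.12. Of 14 gluconeogenic genes, 2 were higher in females and 5 in males (50% in all), with a median of −0.20. Slc37a4, the glucose 6-phosphate carrier, was at −0.65 ± 0.10 and Gpt2, an alanine aminotransferase, at −0.84 ± 0.18. The serine dehydratase Sds had 350.5 to 612 CPM in males and 24.5 to 169 in females (−2.64 ± 0.44), a call lost without animals 13 to 16 (−2.44). Pck1, the rate-limiting enzyme of gluconeogenesis, was at −0.53 ± 0.16, a call lost when female 1, 3 or 5 or male 3 or 5 was left out (−0.50 to −0.43).

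Of 12 iron genes, 3 were higher in exposed females and 1 in exposed males, with a median of 0.16. Calls were thus 33.3% of the iron list, beside 17.5% of all genes tested. Hfe, a regulator of hepcidin, was at −1.19 ± 0.12, the transferrin receptor Tfr2 at 0.51 ± 0.10, the iron exporter Slc40a1 at 0.63 ± 0.13 and the coreceptor Hjv at 0.44 ± 0.11. Hamp, the gene of hepcidin, did not pass (0.34 ± 0.13, adjusted p of 0.093, edgeR), with female 4 at 752 CPM above the other females, at 388 to 490. With a block for consecutively numbered animals Hamp passed (0.33). Acute-phase and complement genes had 6 of 30 higher in females and 4 in males (33.3% in all), with a median of 0.06. None of the 32 ribosomal protein genes tested passed by edgeR, with 5 at an unadjusted p under 0.05, while DESeq2 called 1 and limma-voom 0. Their median was 0.07, and 8 of them passed in sham rats, where no difference from exposed rats passed.

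Macrophage markers differed between the exposed sexes, by small folds. Of 11 Kupffer cell and macrophage markers, 6 were higher in exposed females and 0 in males, beside 9.11% and 8.43% of all genes tested, with a median of 0.35, and their summed level was 751 to 1001 CPM in females and 666 to 765 in males. Csf1r was at 0.40 ± 0.08, Adgre1 at 0.48 ± 0.13, Cd163 at 0.35 ± 0.08 and C1qb at 0.36 ± 0.10, and the last 2 calls were lost without animals 13 to 16 (0.31 and 0.26). Among 11 stellate markers 0 passed by edgeR, DESeq2 or limma-voom, with 0 at an unadjusted p under 0.05 and a median of −0.17. Among 8 endothelial markers 0 passed by edgeR, with 2 at an unadjusted p under 0.05 and a median of 0.14, while DESeq2 and limma-voom each called 2. Summed levels were 370 to 559 CPM in females and 422 to 509 in males for stellate markers, and 491 to 631 and 457 to 554.5 for endothelial markers. Cholangiocyte markers had 2 of 4 higher in males (50%) and lymphocyte markers 1 of 4 in females (25%), beside 17.5% of all genes. Erythroid markers had 0 of 3 (edgeR, with 1 at an unadjusted p under 0.05, and 0 by DESeq2 or limma-voom). Medians of these 3 lists were −0.25, 0.27 and −0.25. The part of these cell types in the division between the sexes was not tested. Of 8 hepatocyte markers, 2 were higher in males (25%) and 6 did not pass, with a median of −0.11. The gene Apoa1, of the main lipoprotein of HDL, was among these 2 at −1.10 ± 0.14 (named after its values were seen).

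**Figure D5:**
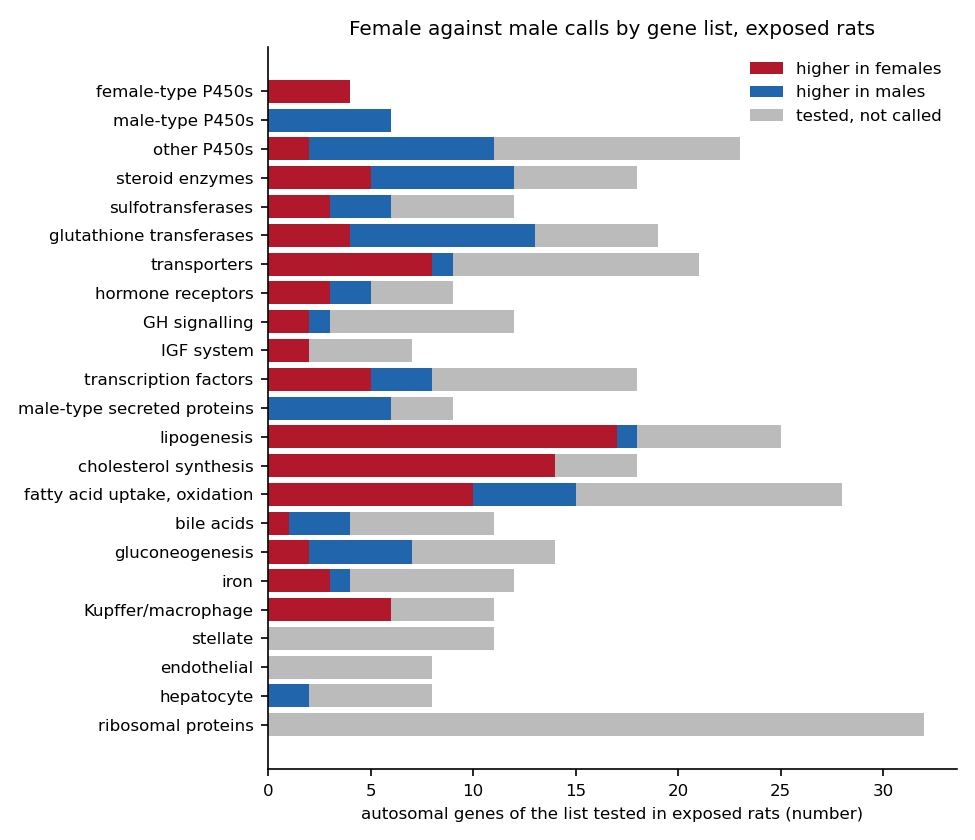
Bars count the autosomal genes of each list tested in PCB 52-exposed rats, split into those that passed (adjusted p under 0.05) and were higher in females (red) or males (blue) and those that did not pass (grey). Calls for lipogenesis and cholesterol synthesis are almost all on the female side, while stellate, endothelial and ribosomal protein genes have none.

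Within a sex, exposed animals did not hold an equal share of the extremes. Over the 74 genes at least 4-fold higher in sham females, female 1 was the lowest of the exposed females for 27 and female 4 for 23, while female 5 was the highest for 26 and female 6 for 20. The median deviation from the female median was −0.11 in female 1, −0.20 in female 4, 0.23 in female 5 and 0.06 in female 6 (log2). Over the 83 male genes, females 1 and 4 were also counted as the highest of the exposed females most often, for 27 and 20 genes. Each gene is placed with 1 animal, and 5 tested genes had 0 counts in every exposed female, so these counts include ties. Female 1 was also counted as the lowest for 19 of the 83. Summed levels of the male genes were 1004 and 845 CPM in females 1 and 4 against 486 to 565 in the other females. The exposed males had summed levels of 22227 to 25855 CPM for the male genes. Females 1 and 4 thus held the highest sums of male genes in their sex, and female 4 also the lowest sum of female genes, 28027 CPM. On the library axis they lay at opposite ends, at 13.9 and −17.3, and its part in these deviations was not tested.

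Among exposed males, male 6 was the highest for 31 of the 74 female genes, with a median deviation of 0.32, and the lowest for 21 of the 83 male genes, with a median deviation of −0.12. Its summed level of the female genes was 4521 CPM, against 2167 to 3412 in the other males and 28027 to 42993 in exposed females. No exposed male or female came near the other sex by either sum.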

How the data were processed

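Gene counts, whole numbers of reads per gene, were deposited by the authors as 1 table for each sex. FastQC, HISAT2 and the rn6 assembly are named per the submitters' processing notes. How reads were assigned to genes, with which strand setting and annotation, is not given in the sources used here. The labels name both poly(A) capture and removal of ribosomal RNA. Without strand, overlapping and antisense genes cannot be told apart.

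The tables were joined by gene ID. Female minus male contrasts were fitted in edgeR 4.0.16 (R 4.3.3) with TMM factors, filterByExpr (minimum count 10, minimum total 15) and the quasi-likelihood test, with Benjamini-Hochberg adjustment over the whole table and a threshold of 0.05. The exposed fit used the 12 exposed libraries and the difference from sham all 24. Standard errors came from the information matrix and moderated dispersion. None is given where a sex had no counts. Alternatives used DESeq2 1.42.0 and limma 3.58.1. Scripts were tested on simulated data. Unmatched IDs stayed in the fits.

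Named genes were the 12 largest non-overlapping folds in each direction, 28 preset genes, 5 in each direction for the difference and for calls in a single treatment, and up to 4 for each described list. Some genes that this rule names are not reported here. Others are marked as named after their values were seen. Members and lists were chosen with earlier results of these data known. Nothing states separate extractions, so p-values measure the spread between these animals. Counting intervals cover counting error only.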

Additional observations from a re-analysis of the deposited data

Results flagged for a closer look

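Among 246 groups of 6 values checked, 20 held an exposed animal far from the other 5 of its sex, and chance flags about 1 in 20 groups. Male 2 was highest for Mup4l1 at 718.5 CPM (others 296 to 442), Sult1e1 at 1289.9 (600.4 to 772.5), Mup4l4 at 201.6 (57.3 to 84.7), Obp3 at 136 (0.948 to 31.9) and Fasn at 797.4 (174 to 336). Female 1 was highest for Cyp2c11 at 9.46 CPM (others up to 1.63), Gstm3 at 2.18 (0.255 to 0.830) and Cyp2b2 at 84.7 (1.27 to 14.9). Female 4 was highest for Cyp2a2 at 2.94 CPM (others up to 1.02) and Hamp at 752 (388 to 490), and lowest for Camlg at 6.42 (8.16 to 8.93). Female 6 was lowest for Cyp3a18 at 14.1 CPM (others 27.3 to 34.6) and highest for Cyp4a3 at 16.6 (7.52 to 10.8). Male 6 was highest for Cyp4a1 at 137.5 CPM (others 56.3 to 71.3) and Elovl6 at 22.7 (4.81 to 10.2). The remaining values were Bcl6 at 47.2 CPM in female 3, C1h19orf47 at 9.22 in male 3, Igfbp1 at 120.9 in male 5, Fdps at 1105 in female 5 and Adgre1 at 54.2 in female 2, each the highest of its sex.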

How the results depend on the processing

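At an adjusted p under 0.01, exposed calls fell to 1115 (598 higher in females, 517 in males), sham calls to 1321 (704 and 617) and shared calls to 862. With at least 2-fold required, these were 480 (251 and 229), 466 (247 and 219) and 375. Leaving out 1 exposed animal at a time gave 1522 to 1721 exposed calls (815 to 912 higher in females, 707 to 810 in males), 1245 to 1348 shared calls and 0 calls for the difference. Exposed calls were 1936 with DESeq2, 1834 with limma-voom, 1737 with RLE factors, 1767 without a filter, 2010 in a fit of all 24 libraries and 1458 without animals 13 to 16. The difference called 0 genes in all alternatives run, with 215 to 378 at an unadjusted p under 0.05. The labels pair no animals. A block for consecutively numbered animals gave 2130 exposed calls, 1545 shared calls with 1 in opposite directions, and 0 for the difference (smallest adjusted p 0.574). Deviations of consecutive exposed animals correlated at 0.0486 to 0.248. For animals 14, 18, 20 and 22, the correlation was higher with the consecutive male than with the best other male. The values were 0.199, 0.248, 0.234 and 0.0791 against 0.186, 0.21, 0.187 and 0.071. For animals 16 and 24, it was lower with the consecutive male (0.171 against 0.19 and 0.0486 against 0.0502). The number was not taken as a pair in the main fits, and whether consecutive animals form pairs was not tested. Direction turned for uncalled genes only: Bcl6 to −0.01 without male 1, −0.04 without male 2 and −0.25 without animals 13 to 16 (up to 0.46 when 1 animal was left out), Srebf1 to 0.04 without animals 13 to 16, and Cidec (0.02) to −0.04 without female 3, −0.01 without female 4, −0.02 without male 1 and −0.01 without male 5 (up to 0.06). The causes were not tested. At these depths, folds against a sex with few counts have wide intervals.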
